A study of Mus musculus with 12 samples.

Results

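The 10 genes described here encode chemokines, small secreted or membrane-bound proteins that direct the migration of leukocytes: Ccl2, Ccl12, Ccl7, Ccl5, Ccl3, Ccl4, Cxcl10, Cxcl1, Cxcl16 and Cx3cl1. They were chosen by name and by no threshold, but with earlier results of these data known, as were the gene lists used further on. Shares of all genes set beside their counts are therefore description and not a test. They are 10 of 24340 rows of the expression table and 10 of the 18509 rows that were above 0 in at least 1 library. Chemokines act through receptors on the surface of their target cells, and each receptor is carried by particular leukocytes: CCR2 by inflammatory monocytes, CXCR2 by neutrophils, CXCR3 by activated T and NK cells, and CX3CR1 by microglia. In an injured retina, chemokines can come from glia, microglia, neurons and the leukocytes that have already entered. Because the RNA came from whole retinas, a change in the number of cells of one type and a change in the RNA per cell cannot be told apart.

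RNA was measured in both retinas of 6 mice, which gave 12 libraries. All 6 mice carried the p16-3MR transgene, in which the regulatory region of p16Ink4a drives luciferase, a red fluorescent protein and a viral thymidine kinase, so that ganciclovir (GCV) is toxic to cells expressing it. The mice were 12 to 16 weeks old, and their sex was not stated per animal. In each mouse the intraocular pressure (IOP) of one eye was held at 85 to 90 mm Hg for 60 min, and the fellow eye was the control. Mice 3, 4 and 6 then received PBS and gave the groups ctrl and IOP. Mice 1, 2 and 5 received GCV at 25 mg/kg once a day for 3 days and gave the groups ctrl-GCV and IOP-GCV, so that the control eyes of these mice were exposed to GCV as well. No group lacked the transgene. The p-values below rest on 3 mice per group. Unless said otherwise, the spread was estimated over all 4 groups together, and the 2 eyes of a mouse were taken as separate.

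The values are FPKM, that is, fragments scaled to the length of the transcript and the size of the library, so that levels of different genes can be set side by side. Each library held an estimated 6830000 to 9060000 fragments, apart from the IOP-treated retina of mouse 6, which held 4020000 with 14844 genes above 0, where the remaining 11 had 16044 to 16593. Rod markers, which define the bulk of the retina, summed to 23700 FPKM or more in every library. Markers of the lens, which lies next to the retina during dissection, summed to 2140 to 4170 FPKM in 5 of the 6 IOP-treated retinas, 59.8 FPKM in that of mouse 3, 5380 FPKM in the control retina of mouse 1 and 4.26 to 88.5 FPKM in the other 5 control retinas. Of the 8 lens markers, 4 rose with IOP over all 6 mice in the limma test given further on (6 with the mouse as a block). Of all genes, 6.76% were called higher there (4.83% with the block). The part of lens tissue in the results was not tested.

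In control retinas, the summed level of the 10 chemokines was almost entirely that of the transmembrane chemokines Cx3cl1 and Cxcl16. Together they made up 94.5 to 98.2% of the summed level of the 10 genes in the ctrl group and 89.2 to 95.8% in the ctrl-GCV group. In IOP-treated retinas this share was 27.4 to 42.4% without GCV and 21.2 to 56.8% with GCV. The summed level of the other 8 chemokines was 0.70 to 2.04 FPKM in the ctrl group and 48.4 to 61.2 FPKM in the IOP group. With GCV the same sum was 2.32 to 4.56 FPKM in control retinas and 26.0 to 152 FPKM in IOP-treated retinas. The lowest of the 6 IOP-treated retinas (mouse 2) thus held 5.69 times the sum of the highest of the 6 control retinas (mouse 5).

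The order of the levels differed between the groups. In the ctrl group Cx3cl1 came first and Cxcl16 second, and the libraries of these 2 genes overlapped neither with each other nor with those of the remaining 8. The same held in the ctrl-GCV group, where Ccl12, next in order, also lay above the other 7 in every library. In the IOP group the order of the group means was Cxcl16, Cx3cl1, Ccl12, Cxcl10, Ccl2, Ccl5, Ccl3, Ccl7, Ccl4 and Cxcl1, and only the step from Ccl4 to Cxcl1 was free of overlap between neighbours. In the IOP-GCV group the order was Ccl3, Cxcl16, Ccl5, Cx3cl1, Ccl2, Ccl12, Ccl4, Cxcl10, Ccl7 and Cxcl1, and every neighbouring pair overlapped.

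**Figure D1:**
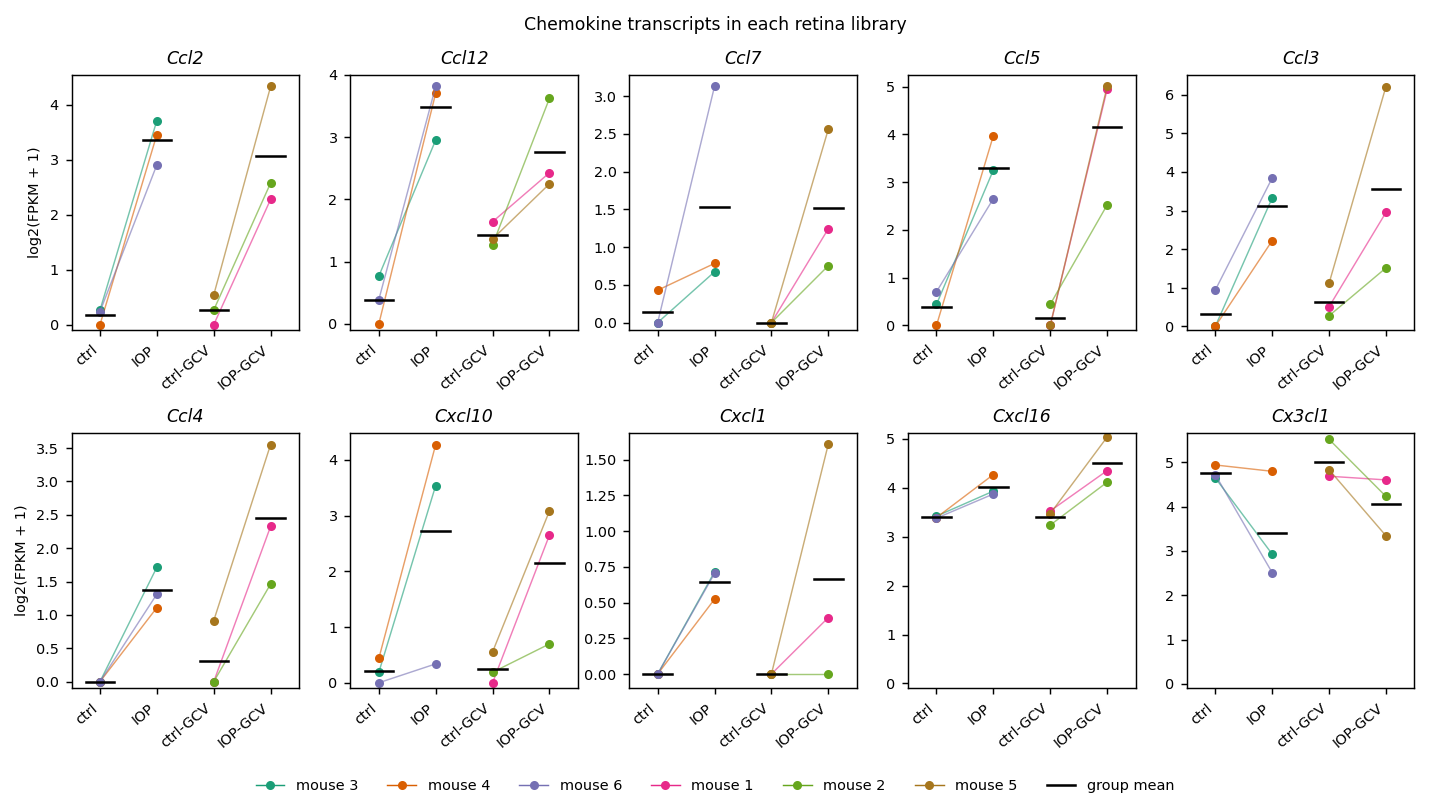
Level of each of the 10 chemokines in each of the 12 libraries, as log2(FPKM + 1) on the vertical axis (each panel with its own scale) and by group on the horizontal axis. Colored points are libraries, thin lines join the 2 eyes of a mouse and black bars are group means. The IOP-treated eye is the higher one in all 6 mice for 8 of the chemokines and the lower one in all 6 for Cx3cl1.

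The question of the first comparison was which chemokines changed with IOP in each arm and over all 6 mice. limma was run on log2(FPKM + 1), and a gene was called at a Benjamini-Hochberg adjusted p under 0.05 over all 18509 genes. The added 1 makes a log2 change of a gene with a low level smaller than its true change. Without GCV, Ccl2, Ccl12 and Ccl5 rose, which is 3 of the 10, where 1.42% of all genes were called higher and 0.232% lower. With GCV, Ccl2, Ccl5, Ccl4 and Cxcl16 rose, which is 4 of the 10, where 1.65% of all genes were called higher and 0.157% lower. Over all 6 mice, 7 of the 10 rose, namely Ccl2, Ccl12, Ccl5, Ccl3, Ccl4, Cxcl10 and Cxcl16, where 6.76% of all genes were called higher and 5.44% lower. The median log2 change of the 10 was 1.95 without GCV, 1.71 with GCV and 1.98 over all mice, against medians of 0.00, 0.0041 and 0.0089 over all genes.

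The eye with raised IOP was the higher of the 2 in all 6 mice for 8 of the 10 genes, where 10.7% of all genes showed this. Of the other two, Cxcl1 was higher in 5 mice and at 0 in both eyes of mouse 2, and Cx3cl1 was lower in all 6. Without GCV, every IOP-treated retina lay above every control retina for 8 of the 10, all but Cxcl10 and Cx3cl1, where this held for 11.7% of all genes. With GCV it held for 8 of the 10, all but Cxcl1 and Cx3cl1, where this held for 14.5% of all genes. When the mouse was added as a block, so that the 2 eyes of an animal were compared with each other, 1 of the 10 was called without GCV (Ccl2), 2 with GCV (Ccl2 and Ccl4) and 6 over all mice (Cxcl10 was lost), where 0.389%, 0.751% and 4.83% of all genes were called higher.

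**Figure D2:**
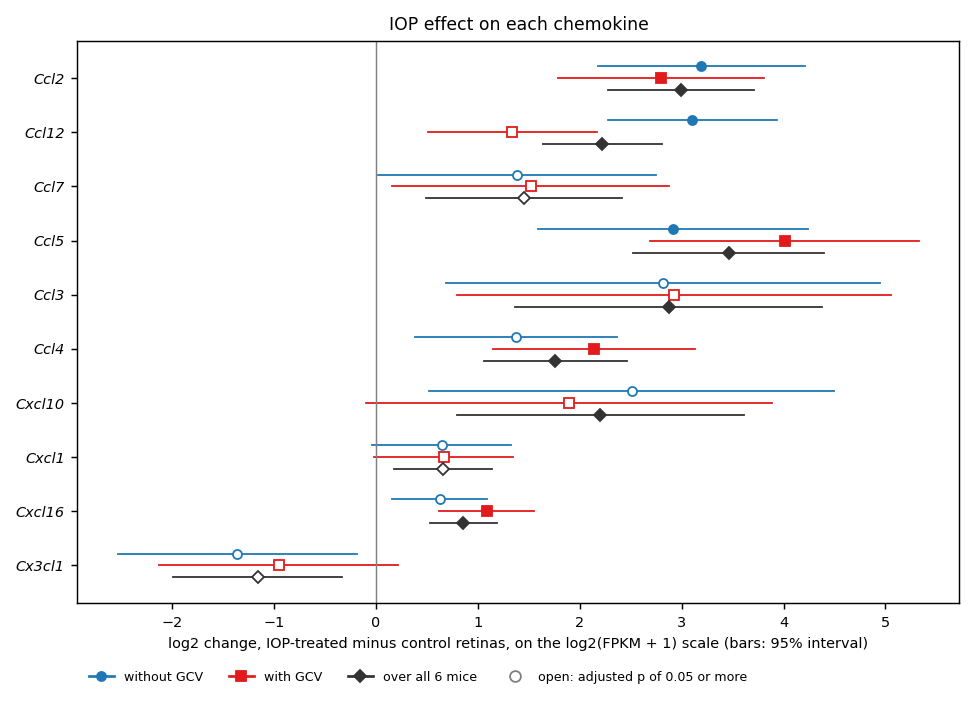
Log2 change between IOP-treated and control retinas for each chemokine (horizontal axis, log2(FPKM + 1) scale), without GCV (circles), with GCV (squares) and over all 6 mice (diamonds). Bars are 95% intervals from limma and filled symbols have an adjusted p under 0.05. All estimates lie to the right of 0 except those of Cx3cl1, which run from -1.36 to -0.95.

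The first role group is that of the CCR2 ligands, the chemokines that call inflammatory monocytes out of the blood. Their genes lie in a cluster on chromosome 11 on the plus strand of GRCm38.p6, Ccl2 at chr11:82035577-82037452, Ccl7 at chr11:82045712-82047525 and Ccl12 at chr11:82101845-82103399. Each has 3 exons in its first GENCODE transcript, and no other annotated gene overlaps any of them.

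Ccl2, also known as monocyte chemoattractant protein, was nearly absent from control retinas and present in every IOP-treated one. In the ctrl group it was at 0.202, 0 and 0.179 FPKM in mice 3, 4 and 6, and in the IOP group at 12.1, 10.0 and 6.52 FPKM. In the ctrl-GCV group it was at 0, 0.203 and 0.455 FPKM in mice 1, 2 and 5, and in the IOP-GCV group at 3.86, 4.98 and 19.2 FPKM. The control values stand for at most 2 fragments and those of IOP-treated retinas for 16.9 to 107.9, and the groups did not overlap in either arm. The log2 change was 3.20 without GCV (standard error 0.46, adjusted p = 0.0116 by limma), 2.80 with GCV (adjusted p = 0.0146) and 3.00 over all 6 mice (standard error 0.32, adjusted p = 0.000712). The call over all mice held in 12 of 12 fits that left out 1 library. The call without GCV was lost when the control retina of mouse 3 (adjusted p = 0.0729) or 4 (0.0697) or the IOP-treated retina of mouse 3 (0.0545) was left out, and the call with GCV when any of the 3 control retinas was (0.0620 to 0.0813).

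Ccl12, a CCR2 ligand found in mice, had the smallest adjusted p of the 10 without GCV. It was at 0.703, 0 and 0.310 FPKM in the ctrl group and at 6.75, 12.1 and 13.1 FPKM in the IOP group, again for mice 3, 4 and 6. With GCV it was at 2.12, 1.41 and 1.58 FPKM in the control retinas of mice 1, 2 and 5 and at 4.38, 11.3 and 3.76 FPKM in the IOP-treated ones. Every GCV control retina thus lay above every control retina without GCV, at an estimated 4.0 to 5.9 fragments against 0 to 2.0. limma gave a log2 change of 3.11 without GCV (standard error 0.37, adjusted p = 0.00599), and the call held in 6 of 6 fits that left out 1 library but not with the mouse as a block (adjusted p = 0.0514). With GCV the log2 change was 1.34 (95% interval 0.51 to 2.17, adjusted p = 0.104), which was not called. Over all 6 mice it was 2.22 (adjusted p = 0.00103).

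The bases before the start of Ccl12 are shown because they can be set beside those of Cxcl10 and Cxcl1 further on. RefSeq promoter entries of GRCm38.p6 were at hand for 5 of the 10 genes (Ccl12, Ccl3, Cxcl10, Cxcl1 and Cx3cl1). The 250 bases before each start were searched on both strands for GAAANNGAAA, the core of the interferon-stimulated response element, for the NF-kappaB consensus, and for TATAAA, the core of the TATA box. These were found in 2.98%, 3.90% and 12.4% of 32851 promoter entries. The window of Ccl12 is chr11:82101595-82101844 on the plus strand, with its TATAAA, at bases -31 to -26 from the start, in capitals.
Ccl12: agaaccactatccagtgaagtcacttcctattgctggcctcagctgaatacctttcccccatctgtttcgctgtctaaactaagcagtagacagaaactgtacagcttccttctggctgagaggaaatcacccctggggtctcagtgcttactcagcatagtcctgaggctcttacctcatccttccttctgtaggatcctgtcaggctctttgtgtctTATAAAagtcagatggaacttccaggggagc
It held neither of the other motifs. The window of Cx3cl1 held TATAAA alone, at bases -6 to -1, directly before the start, and that of Ccl3 held none of the motifs. A match describes the letters only.

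Ccl7, another CCR2 ligand, was at 0, 0.347 and 0 FPKM in the ctrl group and at 0.594, 0.722 and 7.75 FPKM in the IOP group. In the GCV arm it was listed at 0 in all 3 control retinas and at 1.37, 0.686 and 4.90 FPKM in the IOP-treated ones. Mice 6 and 5 held the highest values in their arms, and the low values stand for 3.0 fragments or a few more. Over all 6 mice the log2 change was 1.45 (95% interval 0.49 to 2.42) with an adjusted p of 0.0538, short of the threshold. It passed when the IOP-treated retina of mouse 4 (0.0292) or 6 (0.0468) was left out.

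The second role group is that of Ccl5, Ccl3 and Ccl4, which attract macrophages and activated T cells. Ccl5 and Ccl3 bind CCR1. The 3 genes lie on chromosome 11 too, Ccl5 at chr11:83525778-83530518 and Ccl3 at chr11:83647843-83649378 on the minus strand and Ccl4 at chr11:83648624-83664683 on the plus strand. Ccl5 lies wholly within the lncRNA gene Gm32650. A predicted model of Ccl4 shares 755 bases with Ccl3, on the opposite strand. Whether the counting used strand was not stated, and reads of these shared bases could then have been assigned to either gene.

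Ccl5, which T cells, macrophages and glia can all produce, was at 0.356, 0 and 0.629 FPKM in the ctrl group and at 8.55, 14.7 and 5.30 FPKM in the IOP group. With GCV it was at 0, 0.358 and 0 FPKM in control retinas and at 29.7, 4.75 and 31.1 FPKM in IOP-treated ones. Mice 1 and 5 thus exceeded every retina without GCV, while mouse 2 lay below them all on the IOP side. The log2 change was 2.91 without GCV (standard error 0.60, adjusted p = 0.0417), 4.01 with GCV (adjusted p = 0.0107) and 3.46 over all 6 mice (standard error 0.42, adjusted p = 0.0012). With the mouse as a block, the calls within arms were lost (adjusted p = 0.139 without and 0.0598 with GCV). The call without GCV was also lost in 5 of 6 fits that left out 1 library (0.0615 to 0.189, called only when that of the IOP-treated eye of mouse 4 was), and that with GCV when any of the 3 control retinas was left out (0.05095 to 0.0606). The call over all mice held in 12 of 12 such fits.

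Ccl3, macrophage inflammatory protein 1-alpha, had the largest standard error of the 10 over all mice. It was at 0, 0 and 0.919 FPKM in the ctrl group and at 9.04, 3.66 and 13.4 FPKM in the IOP group. Among GCV-treated mice it was at 0.422, 0.209 and 1.17 FPKM in control retinas and at 6.74, 1.86 and 73.3 FPKM in IOP-treated ones. The value of mouse 5, an estimated 381.8 fragments, was the highest of any of the 10 genes in any library, and mouse 6 and mouse 5 were the highest of their arms in both eyes. The log2 change reached 2.82 without GCV (adjusted p = 0.189) and 2.93 with GCV (adjusted p = 0.147), which were not called. With GCV it ran from 1.60 to 3.95 when 1 library was left out, and it was called when that of the IOP-treated eye of mouse 2 was (3.95, adjusted p = 0.0386). Over all 6 mice it was 2.87 (standard error 0.68, adjusted p = 0.027), called in 4 of 12 fits that left out 1 library. The 4 were those without the IOP-treated retina of mouse 4, 1, 2 or 5, and without any of the other 8 libraries the adjusted p was 0.0512 to 0.0778. Over all mice it was 2.33 without both eyes of mouse 5 (adjusted p = 0.0214) and 2.85 without both eyes of mouse 6 (adjusted p = 0.0882, not called).

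Ccl4, macrophage inflammatory protein 1-beta, was listed at 0 in every control retina but that of mouse 5, at 0.885 FPKM. It was at 2.28, 1.16 and 1.48 FPKM in the IOP group and at 4.02, 1.76 and 10.7 FPKM in the IOP-GCV group. All 6 IOP-treated retinas lay above all 6 control retinas. The log2 change was 1.38 without GCV (adjusted p = 0.174, not called), 2.14 with GCV (adjusted p = 0.0418) and 1.76 over all 6 mice (standard error 0.32, adjusted p = 0.00865). The call with GCV was lost in 5 of 6 fits that left out 1 library (0.0726 to 0.177, kept when that of the IOP-treated eye of mouse 2 was), and the call over all mice held in 12 of 12.

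Cxcl10 and Cxcl1 are secreted CXC chemokines on chromosome 5. Cxcl10 is induced by interferons and binds CXCR3, and Cxcl1 binds CXCR2 and calls neutrophils. Cxcl10 lies at chr5:92346638-92348889 on the minus strand, wholly within the span of Art3 on the plus strand, which was at 0 to 3.87 FPKM over the libraries. Cxcl1 lies at chr5:90891245-90893121 on the plus strand.

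The sequences before their starts are given because both hold the NF-kappaB consensus, and Cxcl10 also the interferon-stimulated core. For Cxcl10 the window is chr5:92348890-92349139 on the minus strand, with GAAANNGAAA at bases -213 to -204 and the NF-kappaB consensus at -159 to -150 and -103 to -94, in capitals. For Cxcl1 it is chr5:90890995-90891244 on the plus strand, with overlapping NF-kappaB matches on the 2 strands at bases -71 to -62 and -70 to -61, in capitals as 1 stretch.
Cxcl10: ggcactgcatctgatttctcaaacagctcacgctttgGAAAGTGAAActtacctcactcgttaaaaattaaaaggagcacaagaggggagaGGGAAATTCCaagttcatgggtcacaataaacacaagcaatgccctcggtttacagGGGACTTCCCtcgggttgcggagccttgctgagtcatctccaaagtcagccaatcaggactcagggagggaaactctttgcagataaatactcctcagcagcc
Cxcl1: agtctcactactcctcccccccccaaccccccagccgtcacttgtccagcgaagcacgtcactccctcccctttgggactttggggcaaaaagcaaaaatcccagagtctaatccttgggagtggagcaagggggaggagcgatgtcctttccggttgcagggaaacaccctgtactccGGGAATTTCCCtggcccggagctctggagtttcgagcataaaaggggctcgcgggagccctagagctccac

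Cxcl10 was high in some IOP-treated retinas and low in others. It was at 0.138, 0.352 and 0 FPKM in the ctrl group and at 10.6, 18.4 and 0.265 FPKM in the IOP group, so that the IOP-treated retina of mouse 6 lay within the range of the controls, at an estimated 1.0 fragment. With GCV it was at 0, 0.139 and 0.468 FPKM in control retinas and at 5.27, 0.621 and 7.48 FPKM in IOP-treated ones. Mouse 2 was low among these but above its 3 controls. Expressed as a log2 change, the difference was 2.51 without GCV (adjusted p = 0.203) and 1.90 with GCV (adjusted p = 0.282), neither of which was called. Without GCV it ran from 1.73 to 3.70 when 1 library was left out, and it was called when that of the IOP-treated eye of mouse 6 was (3.70, adjusted p = 0.0301). Over all 6 mice it was 2.20 (standard error 0.63, adjusted p = 0.0484), and it was lost with the mouse as a block (adjusted p = 0.0547). Of 12 fits that left out 1 library, Cxcl10 was called in 2, without the IOP-treated retina of mouse 6 (log2 change 2.80, adjusted p = 0.00433) or of mouse 2 (adjusted p = 0.0338), and the adjusted p was 0.0570 to 0.121 without any of the other 10.

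Cxcl1 was listed at 0 in all 6 control retinas. It was at 0.641, 0.438 and 0.629 FPKM in the IOP group and at 0.315, 0 and 2.05 FPKM in the IOP-GCV group. The values of the IOP group stand for 2.0 to 4.0 fragments, and the highest, in mouse 5, for 14.0. Over all 6 mice the difference on the log2(FPKM + 1) scale was 0.66 (95% interval 0.18 to 1.14) with an adjusted p of 0.0714, which was not called. It passed when the IOP-treated retina of mouse 2 (0.82, adjusted p = 0.0229) or 5 (0.42, adjusted p = 0.00779) was left out.

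Cxcl16 and Cx3cl1 are made as transmembrane proteins whose chemokine domain sits on a mucin-like stalk and can be shed by the proteases ADAM10 and ADAM17. Cxcl16 binds CXCR6 and also acts as a scavenger receptor on macrophages, and Cx3cl1, or fractalkine, is made by neurons and binds CX3CR1 on microglia. Cxcl16 lies at chr11:70454389-70459984 on the minus strand, where its end shares 552 bases with Zmynd15 on the plus strand (0.0493 to 1.43 FPKM). Cx3cl1 lies at chr8:94772180-94782427 on the plus strand and shares 1327 bases with the predicted lncRNA gene Gm51543.

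Cxcl16 was present in every control retina and had the smallest log2 change over all mice among the 7 called genes. It was at 9.69, 9.47 and 9.39 FPKM in the ctrl group and at 14.2, 18.3 and 13.6 FPKM in the IOP group. In the GCV arm it was at 10.5, 8.42 and 10.1 FPKM in control retinas and at 19.4, 16.3 and 31.8 FPKM in IOP-treated ones. The groups did not overlap in either arm, and each value rests on at least 138.6 fragments. The log2 change was 0.63 without GCV (adjusted p = 0.185, not called), 1.09 with GCV (adjusted p = 0.0308, and 0.0620 with the mouse as a block) and 0.86 over all 6 mice (standard error 0.15, adjusted p = 0.00736). The call with GCV was lost without any of the 3 control retinas or the IOP-treated retina of mouse 1 (0.0612 to 0.146), and the call over all mice held in 12 of 12 fits.

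Cx3cl1 was the member with lower values in IOP-treated retinas. It was at 24.1, 29.7 and 25.4 FPKM in the ctrl group and at 6.60, 26.8 and 4.69 FPKM in the IOP group. With GCV it was at 24.7, 44.8 and 27.5 FPKM in control retinas and at 23.3, 17.8 and 9.14 FPKM in IOP-treated ones. With GCV, every IOP-treated retina lay below every control, that of mouse 1 by the least. Without GCV the retina of mouse 4 lay within the range of the controls and the other two lay below it. The log2 difference between the eyes was -1.36 without GCV (adjusted p = 0.225), -0.95 with GCV (adjusted p = 0.361) and -1.16 over all 6 mice (95% interval -1.99 to -0.33, adjusted p = 0.067), none of which was called. Without the IOP-treated retina of mouse 4 it was called over all mice (-1.50, adjusted p = 0.00358) and without GCV (-2.05, adjusted p = 0.0136). With GCV the difference ran from -1.23 to -0.60 when 1 library was left out, and was not called. The summed level of 7 retinal ganglion cell markers was 203, 914 and 375 FPKM in the IOP-treated retinas of mice 3, 4 and 6 and 671, 521 and 304 FPKM in those of mice 1, 2 and 5, against 828 to 1660 FPKM in control retinas. The 3 retinas with the least Cx3cl1, those of mice 6, 3 and 5, were also the 3 with the lowest sums of these markers, and 5 of the 7 markers fell over all 6 mice, 1 of them (Thy1, adjusted p = 0.0488) also with the mouse as a block. Markers of bipolar and amacrine cells (7 genes) were lowest in the same 3 retinas, at sums of 169 FPKM in mouse 5, 200 FPKM in mouse 3 and 223 FPKM in mouse 6, against 282 to 340 FPKM in the other 3 IOP-treated retinas and 356 to 421 FPKM in control ones. Of these 7, 3 fell over all mice (Gad1, Slc6a9 and Pax6), and the same 3 were called with the block. Over all mice, 5.44% of all genes were called lower. The part of these neurons in the level of Cx3cl1 was not tested.

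The second question was whether the response to IOP differed with GCV, which is meant to deplete p16Ink4a-expressing cells in these mice. The difference between the IOP effects (interaction) was called for 0 of the 10 genes by limma, where 0% of all genes were called. At an unadjusted p under 0.05 it was 1 of 10, where 1.93% of all genes passed. That gene was Ccl12, whose IOP effect was smaller with GCV by a log2 difference of -1.76 (95% interval -2.93 to -0.60, unadjusted p = 0.00708, adjusted p = 0.997). For the other 9 the 95% intervals of the difference all included 0 and reached from -3.43 (Cxcl10) to 3.12 (Ccl3). For Ccl2 the difference was -0.40 (95% interval -1.83 to 1.03), for Ccl5 1.10 (-0.77 to 2.97) and for Cxcl16 0.46 (-0.20 to 1.12). When 1 library was left out, these ran from -1.03 to -0.0059 for Ccl2, from 0.67 to 1.91 for Ccl5 and from 0.19 to 0.65 for Cxcl16.

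Among IOP-treated retinas, GCV against no GCV was called for 0 of the 10 by limma, where 0% of all genes were called, and 2 had an unadjusted p under 0.05, where 4.18% of all genes did. These were Ccl4 (log2 change 1.07, 95% interval 0.08 to 2.06, unadjusted p = 0.0367) and Cxcl16 (0.48, 95% interval 0.0085 to 0.94, unadjusted p = 0.0466), with higher values with GCV and an adjusted p of 0.819 each. Without the library of the IOP-treated eye of mouse 5 the log2 changes were 0.52 for Ccl4 and 0.21 for Cxcl16, and without that of mouse 2 they were 1.56 and 0.67. Ccl12 had a log2 change of -0.72 (95% interval -1.55 to 0.10), which ran from -1.15 to -0.47 with 1 library left out. Among control retinas it was called for 0 of the 10, where 0% of all genes were called, and 1 had an unadjusted p under 0.05, where 1.59% of all genes did. This was Ccl12, with a log2 change of 1.04 (95% interval 0.21 to 1.87, unadjusted p = 0.0186, adjusted p = 1).

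Receptors of the chemokines were read in the same libraries. Ccr2, the receptor of Ccl2, Ccl7 and Ccl12, was at 0.0962 to 0.234 FPKM in the ctrl group and at 3.24 to 5.62 FPKM in the IOP group, a log2 change of 2.14 (adjusted p = 0.0129, and 0.0533 with the mouse as a block). In GCV-treated mice it was at 0.0387 to 0.0851 FPKM and at 2.72 to 9.31 FPKM, a log2 change of 2.63 (adjusted p = 0.00564). Ccr1 rose with GCV (log2 change 1.90, adjusted p = 0.0102), and over all 6 mice Ccr1 (1.49, adjusted p = 0.00176) and Cx3cr1 (0.89, adjusted p = 0.014) rose as well. Cxcr3 was listed at 0 in all 6 control retinas and at 0 to 0.766 FPKM in IOP-treated ones, Cxcr6 was at 0 to 0.656 FPKM over all libraries, and Cxcr2 was at 0 to 0.354 FPKM in controls and 0.131 to 4.99 FPKM in IOP-treated retinas (adjusted p = 0.0821 over all mice). Of 19 receptors in the table, 15 were above 0 and 1, 2 and 5 rose without GCV, with GCV and over all mice, where 1.42%, 1.65% and 6.76% of all genes were called higher. Cxcr4, the receptor of Cxcl12, was among the last (2.13, adjusted p = 0.0221), at 1.04 and 10.9 FPKM on average without GCV and 1.07 and 10.2 with GCV. In IOP-treated retinas it ran from 5.27 to 21.7 FPKM without and from 1.67 to 19.8 FPKM with GCV. Its call over all mice held in 6 of 12 fits that left out 1 library. The median log2 change of the 15 over all mice was 0.33, against 0.0089 for all genes.

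**Figure D3:**
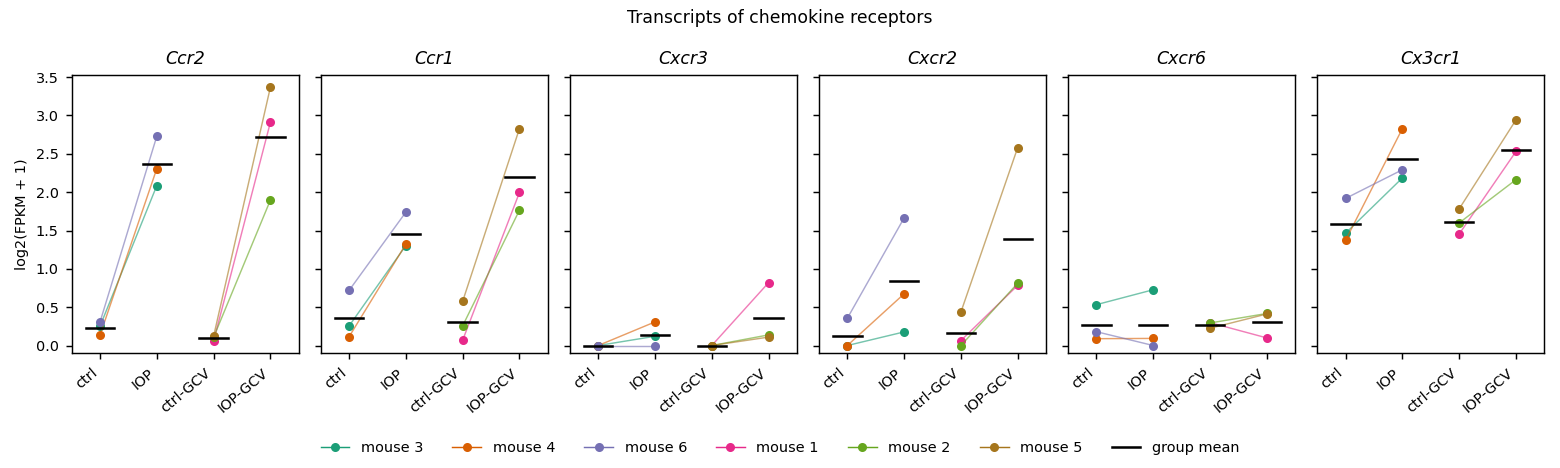
Level of 6 chemokine receptors in each library, as log2(FPKM + 1) on a shared vertical axis and by group on the horizontal axis. Points, lines and bars are as in the plot of the chemokines. Ccr2 and Ccr1 are higher in the IOP-treated eye of all 6 mice, while Cxcr3 and Cxcr6 stay below 0.77 FPKM in every library.

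Among other chemokines, Ccl6 and Pf4 showed the largest changes on the log2(FPKM + 1) scale. Ccl6, a CC chemokine of mouse myeloid cells, was at 1.18 FPKM on average in the ctrl group and 12.5 in the IOP group, and at 1.32 and 34.3 FPKM with GCV. Its log2 change was 2.65 without GCV (adjusted p = 0.0328), 3.84 with GCV (adjusted p = 0.00667) and 3.24 over all mice. The call without GCV was lost with the mouse as a block (adjusted p = 0.061) and in 5 of 6 fits that left out 1 library, kept only when that of the IOP-treated eye of mouse 4 was. Of 18 other CC chemokines, 12 were above 0 and 1, 2 and 5 rose in the 3 comparisons, against 1.42%, 1.65% and 6.76% of all genes. Ccl22 rose with GCV (0.79, adjusted p = 0.0378, and 0.0932 with the block) and over all mice, and Ccl8 (2.12, adjusted p = 0.0258), Ccl9 (1.29, adjusted p = 0.024) and Ccl24 (0.85, adjusted p = 0.0308, and 0.0501 with the block) over all mice. With 1 library left out, the calls of Ccl8, Ccl9 and Ccl24 held in 6, 5 and 4 of 12 fits. That of Ccl22 held in 1 of 6 fits with GCV and in 11 of 12 over all mice. Of 13 other CXC and XC chemokines, 12 were above 0 and 1, Pf4 (platelet factor 4), rose over all mice (2.79, adjusted p = 0.0302), a share near the 6.76% of all genes. The call of Pf4 held in 4 of 12 fits that left out 1 library. Cxcl14 and Ccl27a, which had the highest means of the other chemokines in control retinas, did not pass: Cxcl14 was at 41.2 and 28.4 FPKM on average without GCV and at 47.0 and 25.1 with GCV (log2 change -0.74 over all mice, adjusted p = 0.053), and Ccl27a, of which near-identical copies exist so that its value is uncertain, was at 33.2 to 37.9 FPKM in the 4 group means. Cxcl12 was at 4.84 to 6.70 FPKM. The median log2 change over all mice was 0.32 for the 12 CC and 0.19 for the 12 CXC and XC chemokines.

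Of the proteases that shed Cxcl16 and Cx3cl1, Adam10 had a log2 change of 0.18 (adjusted p = 0.406) and Adam17 one of 0.66 (adjusted p = 0.0626) over all mice. Among atypical receptors, which bind chemokines without calling cells, all 5 genes sought were in the table. Ackr3 was at 1.64 to 4.64 FPKM in the group means (0.47 over all mice, adjusted p = 0.276) and Ccrl2 at 0.179 to 6.11 FPKM (1.28, adjusted p = 0.151). The highest mean of Ccrl2 is that of the IOP-GCV group, which ran from 0.0909 to 17.1 FPKM, so that it rests mostly on 1 library. The value of Ackr1, at 19.9 to 34.7 FPKM, is uncertain, since 1612 of its 1618 bases lie within Cadm3 (28.0 to 97.8 FPKM) on the same strand.

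Of 16 transcription factors known to act on chemokine genes, 5 rose without GCV, 7 with GCV and 12 over all mice, where 1.42%, 1.65% and 6.76% of all genes were called higher, with a median log2 change of 1.21 over all mice. Stat3, which signals for interleukin-6, went from 12.6 to 44.4 FPKM without GCV (1.75, adjusted p = 0.00343) and from 11.2 to 41.7 FPKM with GCV (1.79, adjusted p = 0.00256). Irf9, part of the interferon-stimulated factor, had a log2 change of 2.65 without (adjusted p = 0.0113) and 2.64 with GCV (adjusted p = 0.0076), Irf7 one of 1.83 and 2.94, and Cebpd one of 2.90 and 3.55, each called in both arms. With the mouse as a block, Irf7 (adjusted p = 0.0996) was not called without GCV. With 1 library left out, the calls without GCV held in 3 of 6 fits for Irf9, 1 of 6 for Irf7 and 6 of 6 for Cebpd. Stat2 (1.43, adjusted p = 0.0179, and 0.0586 with the block) and Irf1 (2.08, adjusted p = 0.0311, and 0.0924 with the block) rose with GCV. Of the NF-kappaB subunits, Rela (0.62, adjusted p = 0.00605) and Nfkb2 (1.14, adjusted p = 0.0147) rose over all mice, while Nfkb1 (0.28), Rel (0.43) and Relb (0.72) did not pass. Jun, Fos and Cebpb rose over all mice too.

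Of 15 upstream cytokines and cytokine receptors, 14 were above 0, and 2, 1 and 6 rose in the 3 comparisons, against 1.42%, 1.65% and 6.76% of all genes. The tumor necrosis factor receptor Tnfrsf1a rose in both arms (1.22, adjusted p = 0.0325, and 1.81, adjusted p = 0.0059) and the interleukin-6 co-receptor Il6st without GCV (0.83, adjusted p = 0.0321). Without GCV these calls were lost with the mouse as a block (adjusted p = 0.131 and 0.0978). Il1b was at 0.136 and 4.76 FPKM on average without GCV and at 0.398 and 16.1 FPKM with GCV. The last mean rests mostly on 1 library, since the IOP-GCV group ran from 3.00 to 40.3 FPKM. Il1b rose over all mice (2.55, adjusted p = 0.0137), as did Tnfrsf1b, Il6ra and Ifnar2. With 1 library left out, Il6ra was called in 3 of 12 fits, Tnfrsf1b in 11, and Il1b and Ifnar2 in all 12. Tnf was listed at 0 in all control retinas, with group means of 0.389 and 3.45 FPKM in IOP-treated ones (adjusted p = 0.209 over all mice). It ran from 0.173 to 0.556 FPKM in the IOP group and from 0 to 9.67 FPKM in the IOP-GCV group, whose mean rests mostly on 1 library.

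Markers of other cell types were read in the same libraries, and those of macrophages and monocytes were higher in IOP-treated retinas in sum. Of all genes, 1.42%, 1.65% and 6.76% were called higher without GCV, with GCV and over all mice. Over all mice, 5.44% were called lower. Over 9 pan-macrophage markers, the summed level was 45.2 to 85.5 FPKM in the ctrl group and 287 to 734 FPKM in the IOP group, and 56.9 to 67.5 and 254 to 787 FPKM with GCV, and 5, 5 and 9 of the 9 rose without GCV, with GCV and over all mice (4, 5 and 8 with the mouse as a block). Over 8 markers of monocytes and their progeny, of which Ccr2 is one, the sums were 10.8 to 44.6 and 312 to 671 FPKM without GCV and 11.1 to 22.3 and 152 to 2160 FPKM with GCV, and 5, 5 and 6 rose. With the mouse as a block, 2 of these 8 rose without GCV (Ccr2, Ly6c2 and Plac8 were lost). Chil3 was listed at 0 in all 6 control retinas, and Ly6c2 in the 3 of the ctrl-GCV group. Over 8 neutrophil markers the sums were 1.24 to 5.38 and 16.9 to 117 FPKM without and 2.32 to 17.5 and 32.9 to 402 FPKM with GCV, and 3 of 8 rose over all mice. Camp, which marks their granules, was listed at 0 in the IOP group and the ctrl-GCV group.

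The IOP-treated retina of mouse 5 was the highest of its arm in the macrophage, monocyte and neutrophil sums and in Ccl2, Ccl7, Ccl5, Ccl3, Ccl4, Cxcl10, Cxcl1 and Cxcl16. That of mouse 2 was the lowest of its arm in the same 3 sums and in Ccl7, Ccl5, Ccl3, Ccl4, Cxcl10, Cxcl1 and Cxcl16, and the highest of its arm in Ccl12. Without GCV, mouse 6 was the highest in the macrophage and neutrophil sums and in Ccl12, Ccl7 and Ccl3, and the lowest in Ccl2, Ccl5, Cxcl10 and Cxcl16. Microglial markers (7 genes) summed to 31.5 to 38.9 FPKM in control retinas and 47.9 to 86.7 FPKM in IOP-treated ones, with 3 higher (Fcrls and Cx3cr1 among them) and 1 lower (Siglech) over all mice. Markers of astrocytes and reactive glia (4 genes) summed to 81.7 to 133 FPKM in the ctrl group and 234 to 295 FPKM in the IOP group, and to 109 to 131 and 298 to 680 FPKM with GCV. Of these, Gfap, the intermediate filament of reactive glia, rose without GCV (2.34, adjusted p = 0.0401, and 0.0569 with the mouse as a block) and with GCV (2.97, adjusted p = 0.0139), and Vim rose with GCV (1.66, adjusted p = 0.0198, and 0.0924 with the block). Over all mice Gfap and Vim rose and S100b fell (-0.94, adjusted p = 0.0174, and 0.0511 with the block). T and NK cell markers (10 genes) summed to 0.101 to 0.861 FPKM in the ctrl group and 1.23 to 2.49 FPKM in the IOP group. With GCV the sums were 0.384 to 0.61 and 1.35 to 2.78 FPKM. No sum of an IOP-treated retina overlapped with a control, but no gene of the 10 passed 0.766 FPKM in any library. Their median log2 change over all mice was 0.15. Without GCV, Cd3e (-0.028), Cd3g (-0.0017) and Cxcr6 (0.0060) hardly changed, and the others of the 10 had larger positive changes. Of these 10, 1 (Nkg7) rose over all mice (0.45, adjusted p = 0.0382, and 0.0576 with the block), a share near the 6.76% of all genes. Cd3d, Nkg7, Gzma and Cxcr3 were listed at 0 in all control retinas. Of 5 dendritic cell markers, Itgax rose in each of the 3 comparisons (over all mice alone with the block), and of 4 B cell markers Cd79b rose over all mice (not with the block). Of 6 Mueller glia markers, Apoe rose and Glul and Rlbp1 fell over all mice, and Glul alone was called with the block. The part of any of these cells in the chemokine levels was not tested.

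**Figure D4:**
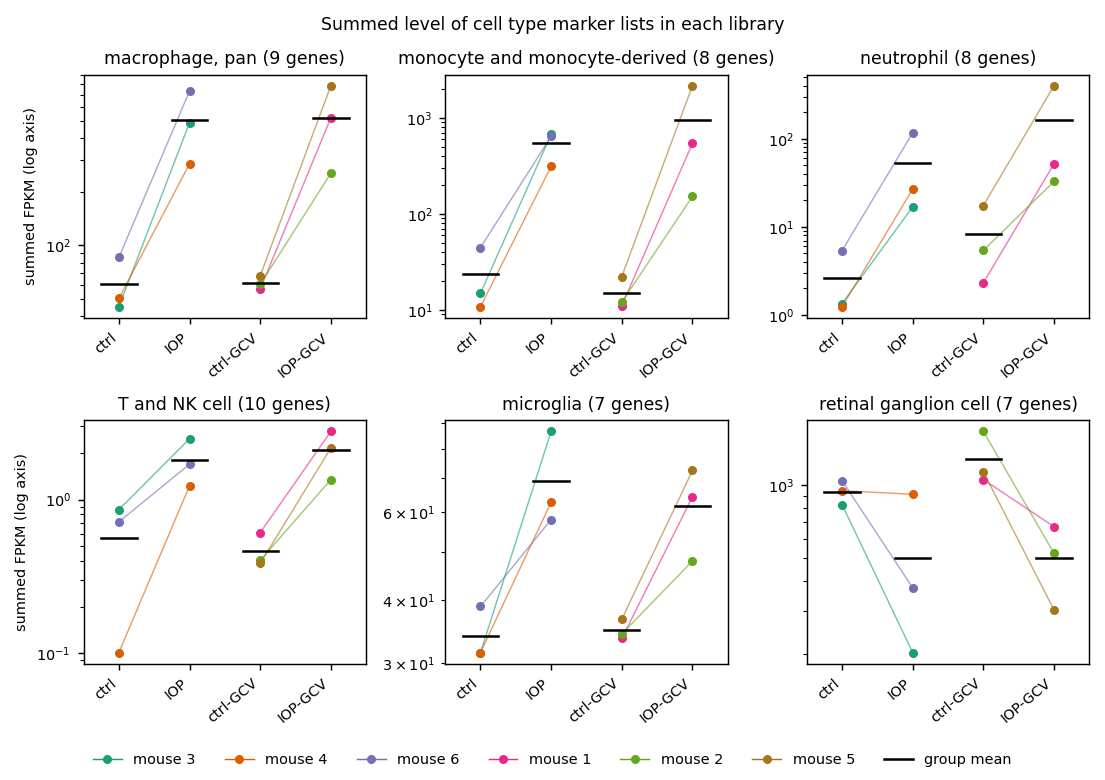
Summed FPKM of 6 cell type marker lists in each library (log vertical axis, each panel with its own scale) by group. Points, lines and bars are as in the plot of the chemokines. Macrophage, monocyte and neutrophil sums are higher in the IOP-treated eye of all 6 mice, and those of retinal ganglion cells are lower in all 6, least so in mouse 4.

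Across the 12 libraries, the genes whose log2 values most closely followed each chemokine with a group mean of at least 1 FPKM, all but Cxcl1, were sought among the 12909 other genes whose mean reached 1 FPKM. These correlations describe 12 libraries that share mice and fall into IOP-treated and control retinas. Ccl2 was most like Irf9 (Pearson r = 0.989), Myo10 and Klhl29, and Cxcl10 was most like D17H6S56E-5 (0.953), Steap4 and Oasl1, the last of which is an interferon-induced gene. Ccl3 was most like Vav1 (0.986), Hk3 and Adgre5, which are genes of blood cells, Ccl5 like Slfn4 (0.976), Tifab and Themis2, Ccl4 like AB124611 (0.978), Clec4n and Lpxn, and Cxcl16 like Chrdl1 (0.975), Fermt3 and Saa3. Ccl7 was most like Map4k4 (0.988), Mcl1 and Il21r. Ccl12 had the weakest partners, Cfl2 (0.896), Tnnt2 and Srsf6. Cx3cl1 was most like the neuronal genes Rian, Atcay and Lingo1, all at 0.993.

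Among the 10 themselves, Ccl3 and Cxcl1 followed each other most closely (r = 0.956), with Ccl4 and Cxcl16 next (0.940). Cxcl1 was at 0 in every control retina and at 4.0 fragments or fewer in most IOP-treated ones. Its highest value, at 14.0 fragments, was in the IOP-treated retina of mouse 5, where Ccl3 was highest too. Correlations with Cxcl1 thus rest on few fragments, and none was computed without that library. Ccl12 and Cxcl1 (0.464) and Ccl7 and Cxcl10 (0.329) were the loosest pairs with a positive sign. Cx3cl1 had a negative correlation with each of the other 9, from -0.312 with Cxcl10 to -0.779 with Ccl7.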

How the data were processed

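RNA was sequenced from both retinas of 6 mice, with 12 libraries in 4 groups of 3. The authors deposited FPKM values in 1 table of 24340 rows. The study's methods name HOMER counts on exons of RefSeq genes from a stranded kit, while the submitters' processing notes list TopHat2, Bowtie2, Cufflinks and Cuffdiff, with no role or version, and mm10. Which of these made the FPKM values is not given in the sources used here, and the unit was inferred from the values. The number of fragments per library was worked out from the steps between low values of 2243 genes that have 1 transcript, 1500 bases or longer, after taking 170 bases off its length. Of these values, 80.6 to 85.4% lay within 0.15 of a whole fragment, and 1 fragment of a member was worth 0.035 to 0.687 FPKM. No counting interval was computed, since the table holds no counts.

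The scale of analysis was log2(FPKM + 1). The package limma 3.58.1 (R 4.3.3) fitted a mean for each of the 4 groups with a variance trend, and p-values were adjusted after Benjamini and Hochberg over the 18509 rows above 0 in at least 1 library, with a threshold of 0.05. The design had named a count test first and limma for normalized values, and limma was used because the table holds FPKM. There were 6 comparisons. The 2 eyes of a number are from 1 mouse, and their deviations from the group means had correlations of -0.117, 0.132, 0.207, 0.388, 0.166 and 0.0998 for mice 1 to 6, so the mouse as a block was an alternative throughout. The others were 0.1 as the pseudocount, a minimum of 1 FPKM in 3 libraries, only the groups compared, median-ratio and quantile scaling, no variance trend, an adjusted p under 0.1, each library left out, and, added after the data had been seen, both eyes of mouse 5 or of mouse 6 left out. The members and lists were chosen with earlier results of these data known. Genes named from the lists are those called in 1 of the first 3 comparisons and, of the rest with a group mean of at least 1 FPKM, up to 6 per list by mean level. Some genes of the lists are withheld and not reported here by name. The 3 genes most like each member were taken by Pearson r. Genes at an unadjusted p under 0.05 were named after their values were seen. Positions, strands and promoters are from RefSeq GRCm38.p6, whose coordinates are those of mm10, and exon numbers and strands from GENCODE vM21. Python 3.11.15 was used with matplotlib 3.10.9, numpy 2.4.6 and pandas 2.3.3.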

Additional observations from a re-analysis of the deposited data

How the results depend on the processing

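Of the 10 chemokines, 3 were called without GCV, 4 with GCV and 7 over all 6 mice. With the mouse as a replicate block these counts were 1, 2 and 6. Leaving out 1 library gave 1 to 4, 0 to 5 and 5 to 8, with 0 with GCV when any of the 3 control retinas was left out. Fitting only the groups compared gave 4 without and 0 with GCV. Leaving out both eyes of mouse 5 gave 5, 1 and 7, and leaving out both of mouse 6 gave 0, 2 and 6. A pseudocount of 0.1 gave 4, 5 and 9, adding Ccl4 without GCV (adjusted p = 0.0345), Ccl7 with GCV (0.0478), and Ccl7 (0.00685) and Cxcl1 (0.0228) over all mice, and the filter, which left 9 members without Cxcl1, gave 3, 4 and 9 of these, with Ccl7 (0.0374, higher) and Cx3cl1 (0.0453, lower) added over all mice. Without the variance trend Cxcl10 was lost over all mice (0.0530), and at an adjusted p under 0.1 all 10 passed there, Cx3cl1 as lower, where 10.8% of all genes were called higher and 11.5% lower. Both scalings left the counts at 3, 4 and 7. The interaction and both GCV comparisons stayed at 0 in every fit.

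The sign of the interaction, which was not called for any member, turned for some. It was -1.08 for Ccl3 and -0.57 for Cxcl1 with a pseudocount of 0.1, -0.0098 for Cxcl1 with quantile scaling, -0.39 for Ccl7, -0.98 for Ccl3 and -0.45 for Cxcl1 without mouse 5, and -0.021 for Cx3cl1 without mouse 6. With 1 library left out it ran from -0.39 to 0.93 for Ccl7, from -1.22 to 1.13 for Ccl3, from -1.80 to 0.16 for Cxcl10, from -0.45 to 0.35 for Cxcl1 and from -0.046 to 1.10 for Cx3cl1. The cause of these changes was not tested. Of the list genes called, 9 without GCV, 12 with GCV and 29 over all mice, 3, 9 and 28 were called with the block and 2, 6 and 20 in every fit that left out 1 library.

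Depth limits Cxcl1, Ccl7, Ccl4 and the control levels of Ccl2, Ccl12, Ccl5, Ccl3 and Cxcl10, which rest on 0 to 8.8 fragments in most libraries, so that a value of 0 does not show absence. Cxcl16 and Cx3cl1 rest on 59.3 fragments or more.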
